A study of Homo sapiens with 3 samples.

Results

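The cells described here were 1274 Caco-2-side cells of a Caco-2/HT29 co-culture with a high combined level of SLC11A2, ITGA5, APOB, SORL1 and CDHR5. Of 19144 cell barcodes in 3 libraries, 15560 had at least 1500 unique molecular identifiers (UMIs), at least 700 genes and at most 20% mitochondrial UMIs. Of these, 12734 carried under 0.1% of their UMIs on 8 genes that mark the HT29 side of the culture (LYZ, KRT20, LCN2, CD24, CD44, CST6, TCN1 and BMP4). Within each library the top 10% of the 12734 cells by the UMI share of the 5 genes together were taken, which gave 429 cells in control replicate 1, 422 in control replicate 2 and 423 in the LPS library. The 11460 remaining cells under the 0.1% limit were the comparison.

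Caco-2 and HT29 are established human colorectal carcinoma lines, and they were grown together on a permeable Transwell membrane and harvested on day 23. The 2 control libraries came from untreated co-cultures, and the single LPS library came from a co-culture that received 1 ng/ml Escherichia coli O111:B4 lipopolysaccharide (LPS) in the apical chamber on day 22 for 24 hours. Cells were frozen and thawed before capture, and libraries of low viability passed through a dead cell removal step whose use per library was not given in the sources used here. The libraries held 33893707, 27934953 and 24185467 UMIs in control 1, control 2 and LPS.

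In the intestine, enterocytes take up iron, fat and sugars through a brush border of microvilli. SLC11A2 carries ferrous iron into the cell, and APOB is the scaffold on which MTTP loads lipid to make chylomicrons. SORL1 is a sorting receptor of endosomes, ITGA5 is a subunit of the fibronectin receptor, CDHR5 is a protocadherin that links the tips of neighbouring microvilli, and MAF is a transcription factor known to act in maturing enterocytes.

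The 5 genes chose the cells, so their levels are a description with no test. SLC11A2 (ENSG00000110911, GRCh38 chr12:50979401-51028566) stood at 1634, 1114 and 1656 CPM (the gene's UMIs scaled to the total UMIs of the class in that library) in the selected cells of control 1, control 2 and LPS, against 209, 141 and 213 CPM in the remaining cells. APOB (ENSG00000084674, chr2:21001429-21044073) stood at 2194, 1788 and 2464 CPM against 341, 231 and 312 CPM. CDHR5 (ENSG00000099834, chr11:616577-626078) stood at 641, 488 and 674 CPM against 86.1, 61.2 and 85.7 CPM. The classes did not overlap for these genes, which the rule used, and control 2 was the lowest library for each of the 5.

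**Figure D1:**
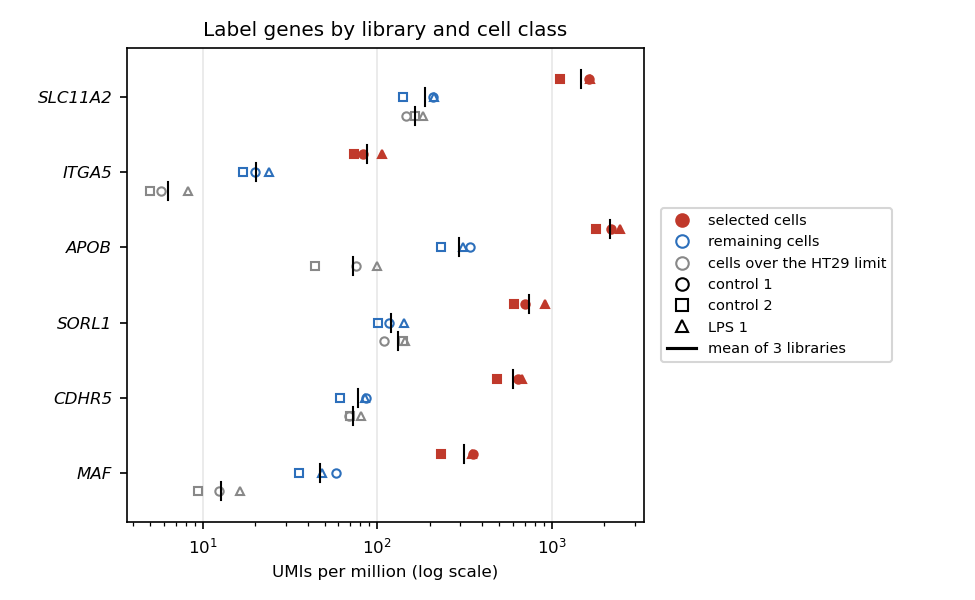
CPM (log scale) of the 6 label genes, with 1 point per library in the selected cells, the remaining cells and the cells over the HT29-gene limit, and a line at the mean of 3 libraries. MAF, which the rule did not use, lay at 232 to 356 in the selected cells and at 35.8 to 58.1 in the remaining cells.

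The selection had no natural edge. The lowest share among selected cells was 0.316%, 0.235% and 0.358% of UMIs in control 1, control 2 and LPS, and the highest share among remaining cells was 0.315%, 0.235% and 0.357%. APOB held 41.7%, 44% and 42.4% of the UMIs on the 5 genes in selected cells, SLC11A2 held 31.1%, 27.4% and 28.5%, and ITGA5 held only 1.59%, 1.81% and 1.83%, so the class is mainly an APOB and SLC11A2 class. At least 3 of the 5 genes had a UMI in 97%, 91.2% and 93.4% of selected cells, but in 47.6%, 50.7% and 47.8% of them a single gene held the majority of the UMIs on the 5 genes.

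To ask whether the 5 genes rose in the same cells, each gene was left out in turn, the top 10% was taken again on the other 4, and the gene left out was tested. Each was higher in cells chosen without it. Left out, SLC11A2 stood at 1299, 873 and 1306 CPM in the cells chosen by the others, against 235, 163 and 246 CPM, which was 5.11-fold (log2 2.35 ± 0.07 SE). The fold was 5.81 for CDHR5, 4.49 for SORL1, 4.42 for APOB and 3.51 for ITGA5, higher in 3 of 3 libraries for each gene, with adjusted p from 2.06e-172 to 1.68e-19 (edgeR quasi-likelihood test on sums per library, library as a block). These genes were put forward together from earlier results on the same libraries, so the values describe them and are no independent evidence. Over 17 alternative settings the log2 difference of SLC11A2 stayed between 2.12 and 2.43. In a separate check, all 5 genes chose the cells on a part of the UMIs, and each was tested on the other part. This gave 2.70 for SLC11A2, 2.59 for CDHR5, 2.30 for SORL1, 2.58 for APOB and 1.76 for ITGA5. In that check each gene helped to choose the cells, so these values are not those of a gene left out.

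The Caco-2 label was checked against gene lists that the study derived from public bulk RNA of each line. The Caco-2 list (756 of 773 genes matched) took 37.4%, 37.5% and 36.6% of UMIs in the selected cells, 39.7%, 39.9% and 40.0% in the remaining cells and 29.7%, 29.6% and 30.2% in cells over the limit. The HT29 list (398 of 411 genes matched) took 9.33%, 9.19% and 9.14%, against 15.6%, 15.4% and 15% in cells over the limit. On both lists the selected cells lay with the remaining cells under the limit. Of 16 HT29-line markers, 5, 8 and 4 were at 0 in the selected cells, and the summed level of the list was 80.2, 85.0 and 84.4 CPM against 4294, 4006 and 4039 CPM in cells over the limit; 8 of those markers set the limit.

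The selected cells were shallower and held another mix of abundant transcripts. Their median depth was 4534, 3753 and 3207 UMIs, against 5619, 4344 and 3695 in the remaining cells. Ribosomal protein genes took 29.7%, 29.5% and 26.8% of their UMIs, against 33.9%, 34.1% and 33.8%, and the nuclear RNA MALAT1 took 3.47%, 3.43% and 3.88%, against 2.57%, 2.63% and 2.87%. The median mitochondrial share differed little, at 3.74%, 4.04% and 4.31% against 3.71%, 4.34% and 4.60%. Depth-matched remaining cells and a fit without mitochondrial and ribosomal protein genes left each of the 30 genes with the largest differences past the threshold in the same direction. Between any 2 libraries 9 to 11 barcodes were shared, with 0 identical count columns.

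Outside the 5 genes, the selected and remaining cells differed broadly. Of 14038 genes tested, 48.7% passed: 3278 were higher in the selected cells (23.4%) and 3564 were lower (25.4%) at an adjusted p under 0.05 (edgeR), and 882 (6.28%) and 1468 (10.5%) were at least 2-fold higher or lower. Every count below has to be read against these shares. With library as a block, the p-values weigh the difference within libraries against how much it varied over the 3 libraries. The variance was estimated with information shared across genes, so very small p-values do not stand for many replicates.

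Among the 20 genes with the largest increase, CUBN, the cubilin receptor for vitamin B12 bound to intrinsic factor, stood at 114, 84.4 and 115 CPM in selected cells of control 1, control 2 and LPS, against 17.9, 6.77 and 9.38 CPM (log2 difference 3.12 ± 0.13 SE, adjusted p = 2.54e-19). The lowest selected library lay above the highest remaining library.

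SLC2A5, the fructose transporter, stood at 268, 336 and 419 CPM against 35.2, 38.1 and 50.8 CPM (log2 2.96 ± 0.08, edgeR adjusted p = 2.79e-24). APOA4, an apolipoprotein of chylomicrons, stood at 6925, 6039 and 6904 CPM against 1052, 685 and 801 CPM (log2 2.91 ± 0.10). Other genes among the 20 largest increases, from SUSD2 at log2 3.09 to MYO7B at 2.38, included the lysyl oxidase LOX (2.91), the fatty acid binding protein FABP2 (2.70), the membrane mucin MUC17 (2.62), the chloride exchanger SLC26A3 (2.59), the alkaline sphingomyelinase ENPP7 (2.56) and the calcium binding protein S100G (2.47). NAALADL1, HHLA2, XPNPEP2, MS4A10 and KNG1 lay between 2.43 and 2.60.

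MAF, which is part of the label and not of the rule, stood at 356, 232 and 349 CPM in the selected cells against 58.1, 35.8 and 48.1 CPM in the remaining cells, a 6.23-fold difference (log2 2.64 ± 0.08, edgeR adjusted p = 2.11e-23). After each cell was thinned to 1500 UMIs, 38.9%, 26.3% and 36.2% of selected cells had a MAF UMI, against 8.0%, 5.5% and 7.8% of remaining cells and 1.9%, 1.3% and 2.6% of cells over the HT29 limit, whose median depths were 5520, 3868 and 3840 UMIs. Without thinning the shares were 70.9%, 52.8% and 61.0% of selected cells. MAF was named with earlier results on these libraries in view.

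The largest decrease was that of DKK1, a secreted Wnt inhibitor, which stood at 4.12, 0.548 and 5.76 CPM in the selected cells against 68.4, 65.3 and 68.6 CPM (log2 -4.38 ± 0.21, edgeR adjusted p = 5.84e-18). PLA2G2A, a secreted phospholipase, differed by -4.31 on the log2 scale, the neuropeptide gene GAL by -4.16, the protease inhibitor family gene WFDC2 by -3.80 and the YAP target ANKRD1 by -3.73. MSMB, TUBB2B, SPTSSB, FABP5 and EMP2 lay between -3.56 and -3.20. The 30 genes kept their direction and stayed past the threshold in each of 19 alternative settings.

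**Figure D2:**
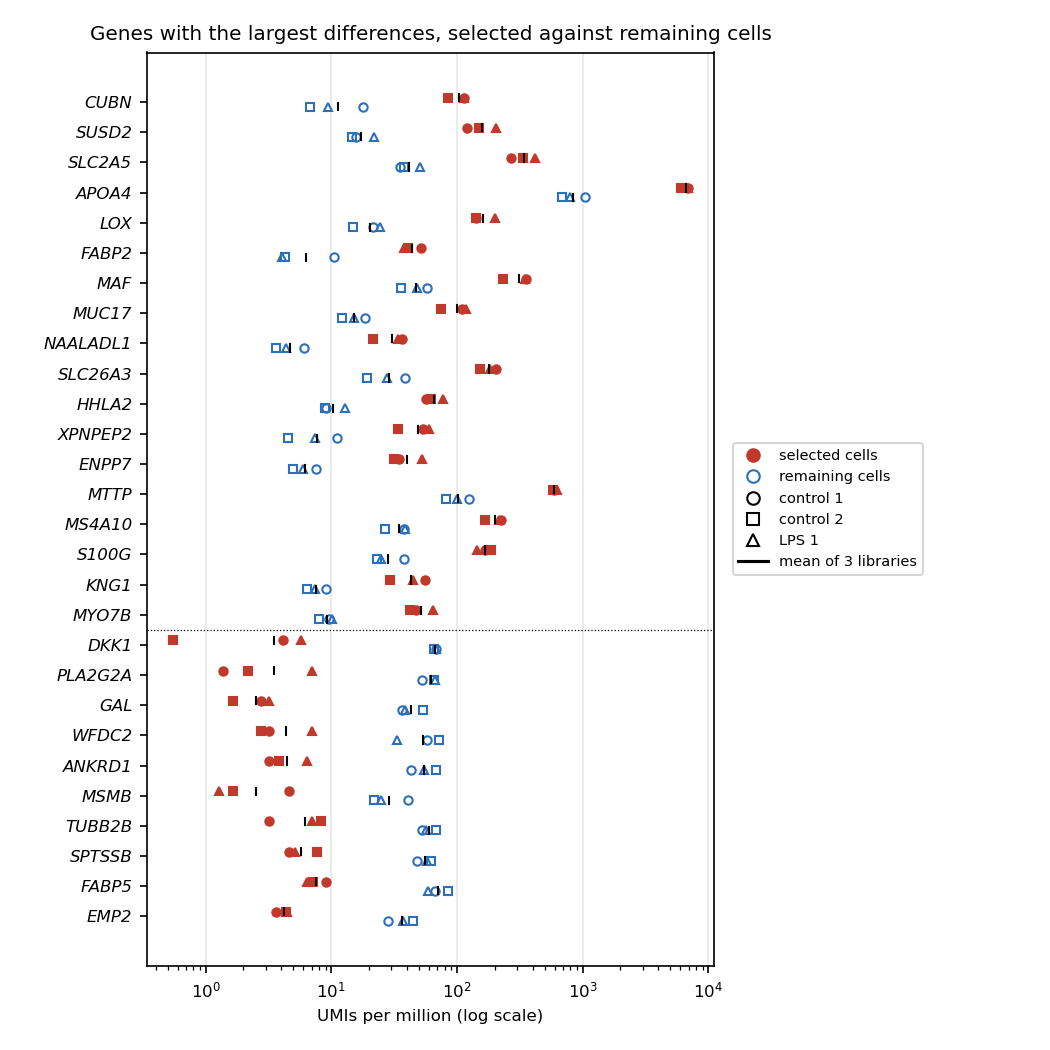
CPM (log scale) of the genes reported here among the 20 with the largest increase (above the dotted line) and the 10 with the largest decrease, 1 point per library in the selected and the remaining cells, with a line at the mean of 3 libraries. The selected cells of all 3 libraries lay to the right of the remaining cells for the genes above the line and to the left for the 10 below it.

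The promoters of these genes were read from RefSeq (GRCh38.p14, 250 bases before the annotated start), where 15 of the 20 genes had an entry, with 21 promoters. HNF4A and CDX2, transcription factors of the intestinal epithelium, were themselves among the higher genes, so the letters of their motifs were searched on both strands. The HNF4-type motif CAAAGNNCA was found in 3 of the 21 promoters (14.3%), in 67 of 929 promoters of genes at least 2-fold higher (7.21%), in 3.45% of promoters of genes at least 2-fold lower and in 3.65% of promoters of all tested genes, and in 4.44% of all RefSeq promoters of this length. The 3 are printed to show where the motif lies, with matched letters in capitals (in SLC26A3 the second run is an HNF1-type match), 5′ to 3′ on the gene's strand: CUBN at chr10:17129812-17130061 (minus), MUC17 at chr7:101019831-101020080 (plus) and SLC26A3 at chr7:107803224-107803473 (minus).
CUBN: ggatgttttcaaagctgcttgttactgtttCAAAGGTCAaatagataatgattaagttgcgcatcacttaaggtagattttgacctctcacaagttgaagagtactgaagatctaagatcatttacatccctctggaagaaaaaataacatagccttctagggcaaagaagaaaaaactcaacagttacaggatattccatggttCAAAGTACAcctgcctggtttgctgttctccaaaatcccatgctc
MUC17: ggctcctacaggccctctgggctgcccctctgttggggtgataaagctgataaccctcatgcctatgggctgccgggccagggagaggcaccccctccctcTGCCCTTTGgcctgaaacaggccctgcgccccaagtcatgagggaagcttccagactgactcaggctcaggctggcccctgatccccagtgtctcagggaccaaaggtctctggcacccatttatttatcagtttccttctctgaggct
SLC26A3: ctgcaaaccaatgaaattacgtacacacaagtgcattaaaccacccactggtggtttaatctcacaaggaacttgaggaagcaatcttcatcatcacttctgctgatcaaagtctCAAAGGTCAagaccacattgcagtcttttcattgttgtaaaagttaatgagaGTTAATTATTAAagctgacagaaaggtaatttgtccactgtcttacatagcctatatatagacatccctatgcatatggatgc

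The CDX-type letters TTTATNG were found in 9.26% of promoters of genes at least 2-fold higher, 5.57% of those at least 2-fold lower, 5.91% of those of all tested genes and 8.93% of all promoters. They were present at MAF, MTTP, S100G and SLC2A5 among the 20 genes. At MAF, S100G and SLC2A5 the match read CTATAAA close to the annotated start. These letters can equally be a TATA box, so they do not single out CDX factors. The MAF-type letters TGCTGAC were in 3.44%, 2.12%, 2.68% and 3.43% of the same groups and in 0 of the 21 promoters. Of the 6 label genes 4 had an entry, with 7 promoters. The HNF4-type letters were in 0 of these 7, the CDX-type in 3 and the MAF-type in 0. A match is a run of letters and not a measured binding site.

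Iron handling genes, the group of SLC11A2, were more often higher than lower. Of 21 tested, 11 were higher and 2 lower, with a median log2 difference of 0.49, against -0.03 over all tested genes. SLC40A1, the iron exporter ferroportin, stood at 444, 434 and 540 CPM in selected cells against 143, 154 and 180 CPM (2.82-fold). HEPH, the ferroxidase that works with it, was 3.09-fold higher, the folate and heme carrier SLC46A1 2.86-fold and the heme exporter FLVCR1 2.34-fold. The ferritin light chain FTL was lower, at 4340, 5249 and 4256 CPM against 6061, 6698 and 5646 CPM (log2 -0.49 ± 0.10), and the heavy chain FTH1 did not pass the test (log2 -0.09 ± 0.09). The reductase STEAP3, at 0.916, 2.74 and 3.20 CPM against 4.11, 3.86 and 4.06 CPM, was the other lower gene (log2 -0.97 ± 0.41, edgeR adjusted p = 0.0495). That call was lost with DESeq2 and with total-UMI scaling, which left 1 gene of the list lower. It was also lost without control replicate 1 (log2 -0.50) or control replicate 2, after thinning, with an independent split of the UMIs and in other settings. In addition, the duodenal reductase CYBRD1 (-0.31 ± 0.42), the metal carrier SLC39A8 (-1.80 ± 0.94) and the transferrin receptor TFR2 (-0.71 ± 0.32) did not pass.

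Beside APOB, the genes of chylomicron assembly were higher in 21 of 26 and lower in 3 (median log2 0.71). MTTP, the transfer protein that lipidates APOB, stood at 589, 576 and 624 CPM against 125, 82.3 and 99.7 CPM (log2 2.48 ± 0.09, edgeR adjusted p = 5.27e-21). MOGAT2, which makes diacylglycerol from absorbed monoacylglycerol, was 6.68-fold higher at 13.3, 10.4 and 17.9 CPM, and the acyl-CoA synthetase ACSL5 was 3.56-fold and the triacylglycerol synthase DGAT1 2.20-fold higher. APOC3 was higher by log2 1.44 ± 0.11 and APOA1 by 0.24 ± 0.10 (edgeR adjusted p = 0.0382). APOH, CD36 and APOE were lower, by -1.08, -1.22 and -0.30 on the log2 scale. The call of CD36 was lost with DESeq2, and those of APOA1, CD36 and APOE without the library block. APOA1 also lost its call without control replicate 1 or 2, with depth-matched remaining cells, at the top 5% and in other settings. CD36 lost its call without control replicate 1 (log2 -0.79), without the LPS library and in other settings. Without control replicate 2 the log2 difference of CD36 was -2.12, and APOE lost its call.

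Most brush border genes, the group of CDHR5, were higher. Of 16 tested hydrolases and receptors 12 were higher and 0 lower (median log2 1.78), and of 14 tested microvillus genes 12 were higher and 0 lower (median 0.79). The aminopeptidase ANPEP stood at 93.9, 88.3 and 100 CPM against 23.8, 19.3 and 20.4 CPM (4.18-fold), and the metalloprotease MEP1A was 3.69-fold higher. CDHR2, the partner of CDHR5 at microvillus tips, stood at 35.7, 44.4 and 46.7 CPM against 8.42, 8.93 and 10.3 CPM (4.32-fold). The brush border myosin MYO1A was 2.85-fold and the actin bundler VIL1 2.14-fold higher. The genes that did not pass were LRP2 (log2 -0.24 ± 0.19), ENPEP, ACE and GGT1 of the first list and PLS1 and EZR of the second.

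Of 21 genes of sorting and lysosomes, the group of SORL1, 12 were higher and 1 lower (median log2 0.48). The lysosomal protease CTSB was 2.81-fold, the mannose 6-phosphate receptor IGF2R 2.48-fold and the endocytic receptor LRP1 2.41-fold higher, while the retromer subunit VPS35 did not pass the test (log2 0.06 ± 0.08). Of 22 integrin and basement membrane genes, the group of ITGA5, 10 were higher and 3 lower (median 0.33; 7 and 1 with DESeq2). The laminin chain LAMB3 was 2.28-fold higher, the focal adhesion protein VCL was lower (log2 -0.88 ± 0.14), and the ITGA5 partner ITGB1 did not pass the test (log2 0.16 ± 0.08).

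Of 23 intestinal transcription factors 14 were higher and 3 lower (median log2 0.47). HNF4A stood at 309, 234 and 296 CPM against 125, 97.5 and 128 CPM (2.27-fold), the lipid regulator CREB3L3, which the chylomicron list also holds, was 3.72-fold, the bile acid receptor NR1H4 3.41-fold and PRDM1 3.18-fold higher, and CDX2 was higher by log2 0.90 ± 0.08. FOXA2 and FOXA3 were among the lower, by -1.35 and -0.97.

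Stem and proliferation genes ran the other way. Of 14 stem cell and Wnt target genes 0 were higher and 11 lower (median log2 -0.90). LGR5, the stem cell receptor, was low everywhere, at 1.83, 0 and 0.640 CPM against 6.13, 4.16 and 4.90 CPM, and ASCL2 stood at 33.9, 28.5 and 39.0 CPM against 75.3, 59.8 and 53.0 CPM (1.99-fold lower). All 20 S phase genes (median -1.64) and all 20 genes of G2 and mitosis (median -2.12) were lower. TOP2A, the topoisomerase of dividing cells, stood at 51.3, 92.7 and 102 CPM against 270, 367 and 343 CPM.

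Because the classes differed in dividing cells, the comparison was repeated, in a step added after seeing the data, with cells that carried under 0.1% of their UMIs on those 40 genes. This kept 89.0%, 89.8% and 89.1% of selected cells and 59.7%, 54.2% and 54.4% of remaining cells. It gave 2668 genes higher (21.4%) and 2634 lower (21.2%) of 12443 tested. The filter did not make the classes alike in dividing cells: 11 of 16 tested genes of G2 and mitosis (median log2 -0.98) and 9 of 16 of S phase (median -0.74) were still lower. MAF then differed by log2 2.06, MTTP by 2.02, APOA4 by 2.25 and CUBN by 2.41. Nuclear-retained RNAs, of which 8 of 12 had been higher and 1 lower (median 0.30), were then higher in 2 of 12 (median 0.09).

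**Figure D3:**
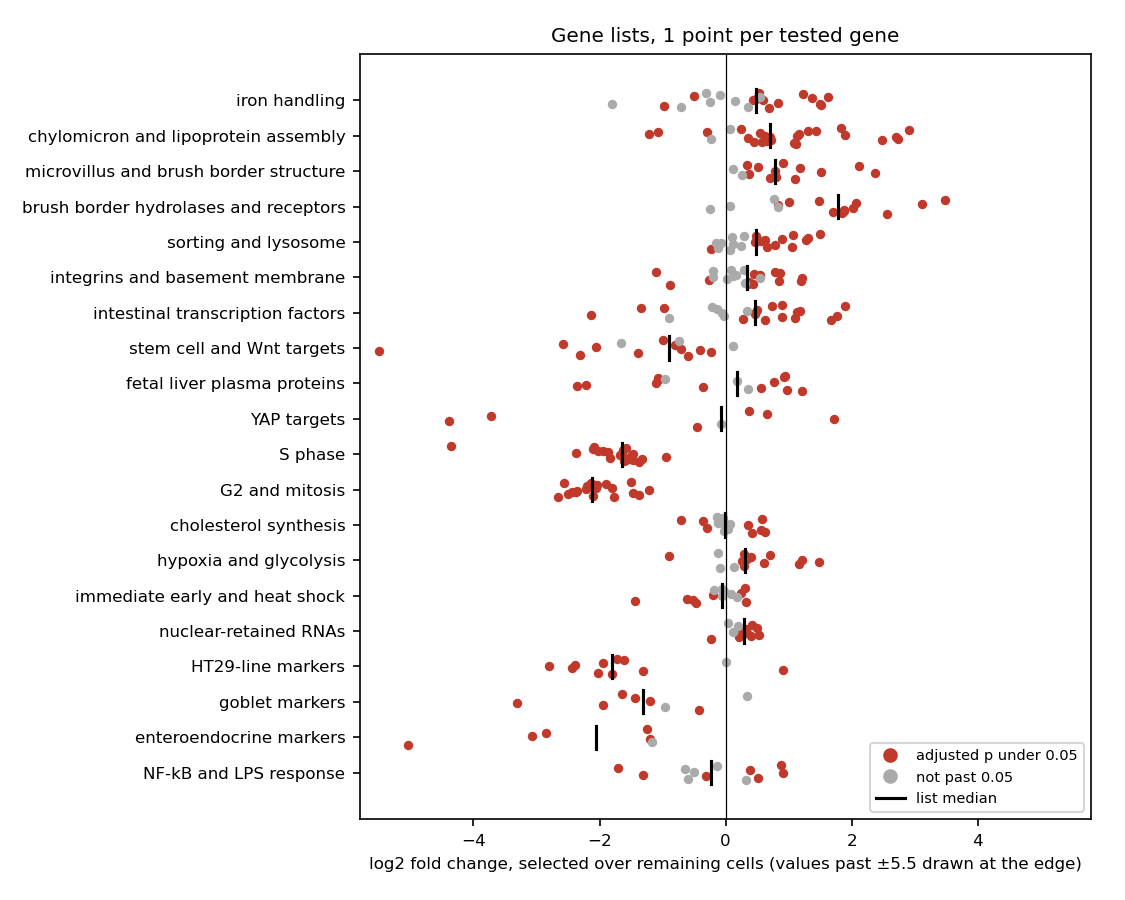
Log2 fold change of each tested gene in 20 gene lists, selected over remaining cells, with genes past an adjusted p of 0.05 in red, the others in grey and the list median as a black line. The S phase and G2 and mitosis lists lay wholly below 0 and the hydrolase list had the highest median at 1.78; SMOC2, with no UMI in the selected cells, is drawn at the edge and its fitted value is no bound.

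Levels changed along the ranking by the 5-gene share and not at the 10% line alone, which is a description. MAF stood at 23.8, 17.1 and 22.7 CPM in the lower 50% of cells, at 180, 112 and 145 CPM in the cells ranked from 80% to 90%, and at 462, 289 and 435 CPM in the top 5%. MTTP went from 44.2, 34.0 and 32.3 CPM to 745, 682 and 802 CPM between the lowest and the highest of these bins. TOP2A went from 311, 431 and 413 CPM to 15.3, 61.2 and 27.3 CPM. Median depth also fell, from 5713, 4528 and 3846 UMIs in the lower 50% to 4258, 3636 and 3069 in the top 5%, and its part in the trend was not tested.

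**Figure D4:**
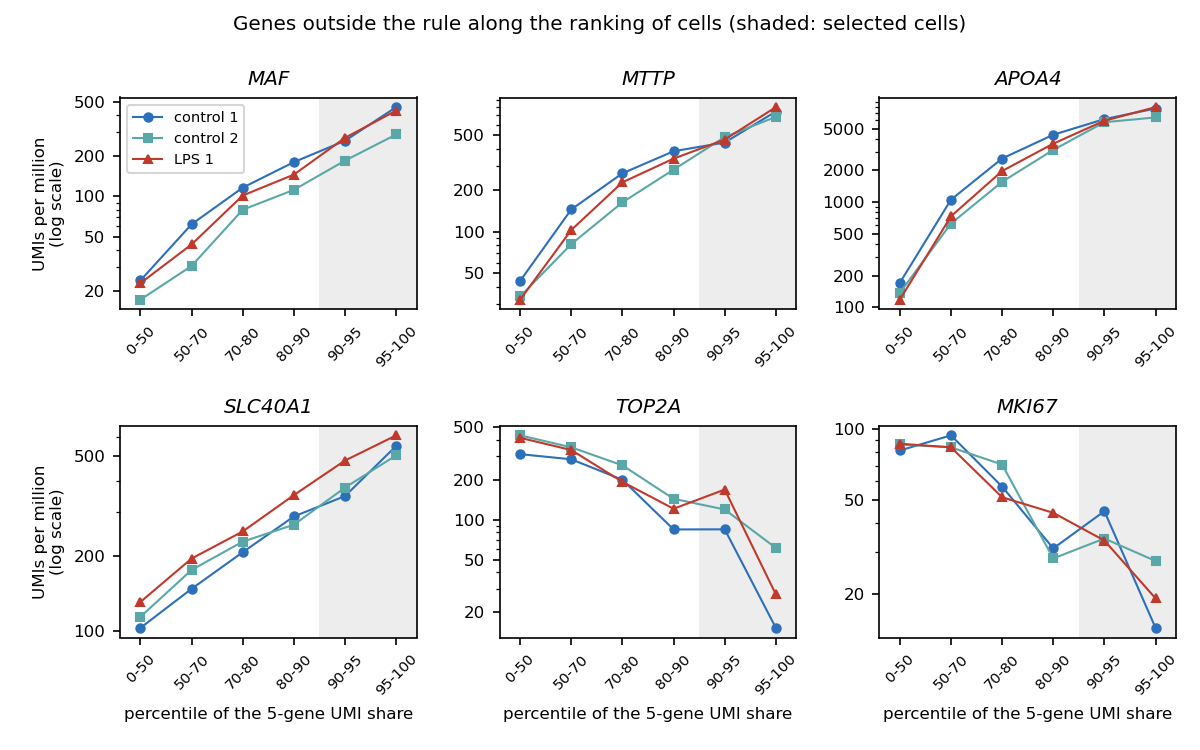
CPM (log scale) of 6 genes outside the rule in bins of cells ranked by the UMI share of the 5 genes, 1 line per library, with the selected cells shaded. MAF, MTTP, APOA4 and SLC40A1 were highest in the top 5% of each library, and TOP2A was lowest there.

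Markers of other intestinal cell types were low or lower. Of 8 goblet markers tested 0 were higher and 6 lower, and their summed level was 870, 840 and 819 CPM against 1341, 1116 and 930 CPM, most of it TFF3 (842, 801 and 731 CPM). The goblet mucin MUC2 was at 0 in control 1. Of 8 enteroendocrine markers 5, 3 and 6 were at 0 in the selected cells. The list summed to 4.58, 12.1 and 2.56 CPM there, against 16.8, 14.4 and 62.1 CPM in the remaining cells. In the remaining cells of the LPS library, SST made up 53.9 CPM of that sum. A level of 0 in the selected cells rests on fewer cells and UMIs than the remaining class held. Fetal liver plasma protein genes, a known trait of Caco-2, split into 6 higher and 6 lower of 15: VTN was 2.31-fold, TTR 1.96-fold and AFP 1.91-fold higher, and ALB, FGG and ORM1 were lower by -1.07, -1.11 and -2.21 on the log2 scale.

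For comparison with cells high in other enterocyte genes, another class was taken as the top 10% of the same cells by the summed share of 3 enterocyte genes, among them APOA4 and FABP2. It shared 196, 214 and 209 cells with the selected cells, which was 45.7%, 50.7% and 49.4% of each class, and those cells were left out. The 655 selected cells that were not APOA4-high were then compared with the 655 APOA4-high cells that were not selected. Of 8485 genes tested, 34.4% passed: 1198 were higher in the selected cells (14.1%) and 1722 lower (20.3%), so 41.0% of calls were higher; at least 2-fold, the shares were 2.64% and 5.16%. TMM scaling moved the log2 differences by -0.44 relative to plain CPM, and with total-UMI scaling, added after seeing the data, 3760 were higher and 745 lower, so 83.5% of calls were higher. Directions below are relative to the TMM scaling unless both are given.

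Of the chylomicron genes tested against the APOA4-high cells, 14 of 22 were lower in the selected cells, with 1 higher (median log2 -0.55); under total-UMI scaling 8 were lower and 5 higher (median -0.10), and with DESeq2 8 were lower and 0 higher. The APOA4-high cells were chosen on APOA4 and FABP2, themselves genes of fat absorption, and the selected cells that were also APOA4-high were left out, so lower levels of genes that go with APOA4 can follow from the choice of classes; its part in these values was not tested. APOC3 stood at 5366, 6246 and 4259 CPM against 11708, 12692 and 10440 CPM, FABP1 at 3388, 4026 and 2477 CPM against 5938, 6067 and 4897 CPM, and TTR at 433, 384 and 368 CPM against 1463, 981 and 1114 CPM, so these 3 were lower on the CPM scale too. FTH1 and FTL were lower by -1.32 and -1.31 on the log2 scale. MTTP overlapped between the classes, at 450, 408 and 394 CPM against 424, 335 and 416 CPM, and its call (log2 -0.34 ± 0.10, edgeR adjusted p = 0.00375) ran against the CPM means. The largest decreases were IFI27, GUCA2B, TTR, S100A1 and APOBEC1, from -2.57 to -1.80.

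MAF was higher in the selected cells, at 318, 214 and 306 CPM against 152, 118 and 172 CPM (log2 0.49 ± 0.11, edgeR adjusted p = 1.24e-04). CUBN did not pass the test (log2 -0.25 ± 0.16). The brush border, iron and hypoxia lists were split against this class, and their counts depended on the scaling. Of 14 microvillus genes 1 was higher and 3 lower (median log2 -0.05), of 11 hydrolases and receptors 2 were higher and 2 lower (median -0.11), and under total-UMI scaling 6 and 6 were higher and 0 lower (medians 0.41 and 0.34). DESeq2 called 0 genes of either list in either direction. Of 16 iron genes 3 were higher and 3 lower (median 0.18; 12 higher and 2 lower under total-UMI scaling): SLC39A14, a carrier of iron and zinc, was higher by log2 1.08 ± 0.14, HEPH by 0.30 ± 0.12 and IREB2 by 0.58 ± 0.17, SLC46A1 was lower (-0.46 ± 0.18), and SLC40A1 (-0.05 ± 0.10) and FLVCR1 (0.18 ± 0.12) did not pass. With DESeq2 the calls of HEPH, IREB2 and SLC46A1 were lost, and that of SLC39A14 was not. HEPH also lost its call without control replicate 1 or 2, after thinning and in other settings, and IREB2 without the LPS library. SLC46A1 lost its call when any 1 library was left out, and its log2 difference was -0.003 under total-UMI scaling. Of 13 hypoxia and glycolysis genes 4 were higher and 4 lower (median -0.07; 7 higher and 1 lower under total-UMI scaling). Of 17 genes of G2 and mitosis 6 were higher and 1 lower (12 and 0 under total-UMI scaling, 4 and 0 with DESeq2); TOP2A was higher, at 78.3, 185 and 179 CPM against 40.4, 86.6 and 65.3 CPM. The largest increases were ZNF90, STAT5B, PPP1R12B, ACP6 and OTUD4, from 2.15 to 1.39.

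Nuclear-retained RNAs moved with this contrast. Of 12 tested, 10 were higher and 0 lower (median log2 0.59; 5 and 0 with DESeq2), among them LUC7L3 at 284, 372 and 443 CPM against 103, 137 and 156 CPM. MALAT1, the most abundant, stood at 34444, 40249 and 41312 CPM against 23237, 25935 and 28980 CPM. Ribosomal protein genes took 30%, 29.1% and 26.2% of UMIs against 33.8%, 32.8% and 32.9%, and median depth was 4315, 3344 and 2986 UMIs against 5592, 4069 and 3764. The part of these shifts in the differences between both classes was not tested.

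**Figure D5:**
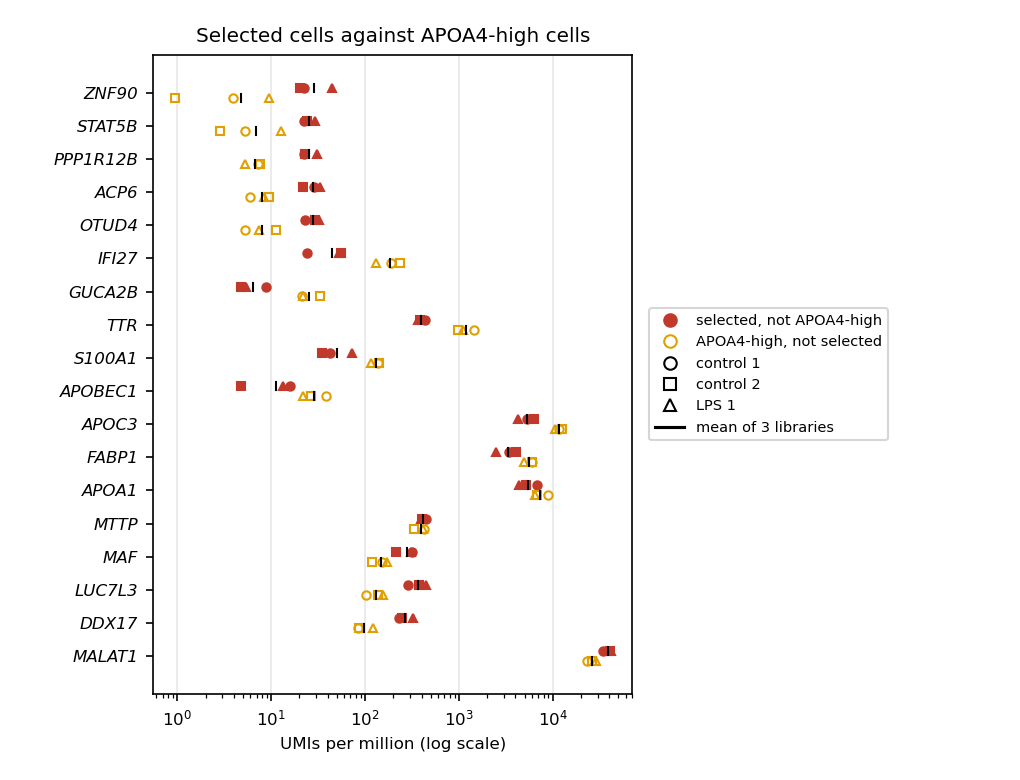
CPM (log scale) in selected cells that were not APOA4-high and in APOA4-high cells that were not selected, 1 point per library, with a line at the mean of 3 libraries. APOC3 and FABP1 lay lower and MAF, LUC7L3 and DDX17 higher in the selected cells of each library, and MTTP overlapped.

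The effect of LPS within the selected cells rested on 1 LPS library against 2 controls, and the LPS library is assumed to vary like the controls. Which genes passed depended on the scaling: most calls were lower with TMM, and most were higher with total-UMI scaling. This compares the sets of genes called, and does not mean that single genes changed direction. Of 10476 genes tested 16 passed (0.153%) by edgeR, 5 higher (0.0477%) and 11 lower (0.105%), of which 4 (0.0382%) and 2 (0.0191%) were at least 2-fold. At an unadjusted p under 0.05 there were 731 genes, and DESeq2 called 0. None of the 7 tested genes of the NF-kB and LPS response passed by edgeR (median log2 -0.07), nor did MAF (log2 0.11) or any iron gene.

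For 3 of the 4 named increases the UMIs lay in few cells. FCGBP, a goblet protein that binds IgG, stood at 25.6 CPM with LPS and at 3.66 and 0.548 CPM in the controls, but its 40 UMIs sat in 3 of 423 cells, with 23 in 1 cell. TTN had 38 UMIs in 17 cells, with 17 in 1 cell, and the lectin gene LGALS4 had 98 UMIs in 27 cells, with 31 in 1 cell, and its log2 difference turned to -0.42 when the top 5% of cells were taken and to -0.20 for the top 20%. Fibronectin, FN1, the ligand of the receptor that holds ITGA5, stood at 228 CPM with LPS and at 95.3 and 132 CPM in the controls (log2 0.88 ± 0.18); its 356 UMIs lay in 144 of the 423 cells, with 75 in 1 cell.

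The named decreases were S100A9, ALKBH7, LSM7, TFF2 and DBI. S100A9, a calcium binding protein of inflammation, stood at 8.96 CPM with LPS and at 11.5 and 78.9 CPM in the controls, so control 2 alone held the difference, with 71 of its 144 UMIs in 1 cell. TFF2, a trefoil peptide, stood at 274 CPM against 469 and 411 CPM (log2 -0.82 ± 0.17), and DBI, which binds acyl-CoA, at 677 CPM against 1082 and 953 CPM (log2 -0.72 ± 0.15). The LPS library was also the shallowest and had the lowest ribosomal protein share, and without mitochondrial and ribosomal protein genes 0 genes passed. The difference between selected and remaining cells itself differed between LPS and control in 6 of 14912 genes (0.0402%), 4 higher (0.0268%) and 2 lower (0.0134%), all at least 2-fold by the fitted value. Treatment and library cannot be told apart here.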

How the data were processed

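All 3 of the 10x Genomics 3′ libraries of the co-culture were used. The authors made the deposited UMI counts per gene and barcode with Cell Ranger (version 3.1.0 in the matrix headers) on GRCh38; no normalization was applied to them. The members, gene lists and comparisons were chosen with earlier results of these data known.

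Cells were kept and selected by the rule given above. Counts were summed per library and class, and tested with edgeR 4.0.16 (TMM, filterByExpr, quasi-likelihood F test, Benjamini-Hochberg adjustment, library as a block; LPS against control without a block) in R 4.3.3. DESeq2 1.42.0 was an alternative. The 5 genes of the rule were left out of the tests, and the 3 genes that chose the APOA4-high cells also out of that comparison. SE is the log2 difference divided by the root of F. Named genes were the 20 largest increases and 10 largest decreases that passed, had the same sign in all 3 libraries and at least 20 CPM in the higher class of each (5 and 5 for the comparison with APOA4-high cells; for LPS, at least 20 CPM in the higher group), without clone-based or LINC symbols. Genes of the lists may be named with their list, and the 6 label genes are always named. Some genes that the rule or the lists chose are not reported here.

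Scrublet (scanpy 1.11.5) called 0, 0 and 1 of 5093, 5307 and 5160 cells as doublets, which is too few for it to have worked, so no doublets were removed; removing the 6% with the highest scores was an alternative. Shares of cells with a UMI were also computed after thinning to 1500 UMIs, which left out no cell. Gene positions are from GENCODE on GRCh38, and promoters from RefSeq. The tests were run on simulated counts first. Alternatives were other normalizations, filters, depths, limits and cutoffs, an independent split of the UMIs for choosing and testing, and leaving out each library.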

Additional observations from a re-analysis of the deposited data

Results flagged for a closer look

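In 6 of 14912 genes the difference between selected and remaining cells itself differed between the LPS library and the controls (edgeR interaction term, adjusted p under 0.05; 656 had an unadjusted p under 0.05 and DESeq2 called 0). With 1 LPS library, treatment and library cannot be told apart. FCGBP differed by 3.53 on the log2 scale (LPS minus control): its level in selected cells was 3.66, 0.548 and 25.6 CPM in control 1, control 2 and LPS, and in remaining cells 14.1, 43.4 and 25.1 CPM. LCN15 differed by 5.15, from 0, 1 and 28 UMIs in the selected cells, of which 17 of the 28 sat in 1 cell. LGALS4 differed by 1.51, although its LPS difference within the selected cells turned direction at the top 5% and the top 20%, and PIF1 by 2.42, with 4, 5 and 20 UMIs in the selected cells. S100A9 differed by -2.06, with 25, 144 and 14 UMIs in the selected cells, so control 2 holds most of it. AP001626.1 differed by -10.8, a fitted value that is no bound because the LPS library held 0 of its UMIs in 423 selected cells, against 30 in 6 cells and 24 in 4 cells of the controls.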

How the results depend on the processing

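Of 209 alternative values of the main results, 167 kept their direction and side of the threshold or stayed within 1.5 times of the count. The cause of the other 42 changes was not tested. Of the counts over all genes against the remaining cells, only the DESeq2 count of lower genes, 2346, left that range. Some list counts did too: with DESeq2 the stem and Wnt list had 7 lower, integrins 1 lower, HT29-line markers 5 lower, enteroendocrine markers 0 lower and the NF-kB list 2 higher and 0 lower, and with depth-matched remaining cells the nuclear-retained list had 4 higher, the immediate early list 0 higher, and 6 of 9 stem and Wnt, 3 of 5 HT29-line and 1 of 1 enteroendocrine genes tested were lower. Against all remaining cells leaving out 1 library gave 2682 to 2864 genes higher and 2737 to 3035 lower. For the genes left out of the rule, leaving out 1 library gave log2 differences of 2.34 to 2.40 for SLC11A2, 1.77 to 1.84 for ITGA5, 2.12 to 2.16 for APOB, 2.11 to 2.23 for SORL1 and 2.50 to 2.61 for CDHR5.

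Without the library block, 2812 genes were higher and 2924 lower against the remaining cells, and 746 higher and 1314 lower against the APOA4-high cells. No paired analysis was possible because, for LPS against control, the groups share only replicate number 1; leaving out a control there, or in the interaction, leaves no residual degrees of freedom and was not run.

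Against the APOA4-high cells the count of higher genes was 3760 with total-UMI scaling, 217 with DESeq2 (3631 genes had no adjusted p), 565 with 4000 or more UMIs, 698 with an independent split of the UMIs and 702 to 859 without 1 library; it was 702 without control replicate 1 and 718 without LPS replicate 1. The count of lower genes was 745 with total-UMI scaling, 978 with DESeq2, 1080 with 4000 or more UMIs, 1140 with the split and 1210 to 1464 without 1 library.

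For LPS within the selected cells, higher and lower genes numbered 8 and 1 with total-UMI scaling, 0 and 0 with DESeq2, 1 and 0 at the top 5%, 0 and 0 at the top 20%, 2 and 1 at a stricter minimum of UMIs and genes, 8 and 25 at 4000 or more UMIs, 1 and 1 at a 0.05% HT29 limit, and 0 and 0 without mitochondrial and ribosomal protein genes. There were 26 lower without the low-count filter, 1 higher after thinning and 7 lower with the split. LGALS4 reversed to -0.42 at the top 5% and to -0.20 at the top 20%. For the interaction, higher and lower genes numbered 0 and 0 with DESeq2, at the top 5% and at the top 20%. There were 2 higher at the 0.05% limit, 2 higher and 0 lower with the split, 1 lower with total-UMI scaling and 0 lower at 4000 or more UMIs.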

Other observations

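Further lists were compared between selected and remaining cells. Of 14 hypoxia and glycolysis genes 10 were higher and 1 lower (median log2 0.31), led by NDRG1 at 667, 502 and 645 CPM against 184, 196 and 232 CPM (2.80-fold) and the hexokinase HK2 (2.30-fold). Of 16 cholesterol synthesis genes 5 were higher and 3 lower (median -0.02), of 14 immediate early and heat shock genes 3 were higher and 5 lower (median -0.06), of 7 YAP targets 3 were higher and 3 lower (median -0.07), and of 12 NF-kB and LPS response genes 4 were higher and 3 lower (median -0.23). For the cholesterol, immediate early and YAP lists the sign of the median turned under total-UMI scaling, to 0.06, 0.02 and 0.01, and with depth-matched remaining cells that of the NF-kB list turned to 0.24, with 2 of 6 tested genes higher and 0 lower. Among cells with few cell-cycle UMIs, 0 of 14 immediate early and heat shock genes were higher and 8 lower (median -0.26).

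Genes higher in the selected cells spanned a median of 40.9 kb of genome, those lower 23.0 kb and all tested genes 29.4 kb (65 tested genes had no GENCODE entry). For genes at least 2-fold higher the median was 32.2 kb, nearer to that of all tested genes, and for those at least 2-fold lower 23.4 kb. This is a description of these calls.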
